A study of Mus musculus with 12 samples.

Results

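The levels of 8 genes that mark Schwann cells and other neural cells were followed in cultured skin-derived precursors (SKPs), the dermal cells that grow as floating spheres: Sox10, S100b, Mbp, Gfap, L1cam, Ncam1, Gap43 and Tubb3. They were found by symbol in the annotation of the array, and each of the 8 has a single probe set that names it alone, so the brightest probe set per symbol was the only one. They are 8 of the 22180 genes measured. A further probe set names Ncam1 together with a second gene and was not used.

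RNA from 12 sphere cultures was measured on Affymetrix mouse whole-transcript arrays, 3 in each of 4 groups, and the series title places the work in a search for drugs that help skin repair. The first group came from uninjured skin with vehicle, and the other groups from wounded skin with vehicle, with trimebutine maleate or with alprostadil. All the mice were 9 months old, of a strain that the labels spell CD57/Bl6, and no group carried a genetic change in the labels. Trimebutine is known as a gut motility drug with opioid receptor activity, and alprostadil is prostaglandin E1. Every culture was a secondary sphere culture seeded at 50000 cells per ml in medium with 2% B27 and the growth factors EGF (20 ng/ml) and FGF2 (40 ng/ml), so each value describes cells after growth in these factors and not the skin itself. The sources used here do not state drug doses, treatment times or the skin site. The series text calls the 3 samples of a group independent isolates.

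Schwann cells are the glia of peripheral nerves: Sox10 sets their identity, S100b is a calcium-binding protein of the cell body, Mbp is a protein of compact myelin, and Gfap is an intermediate filament of non-myelinating Schwann cells and of astrocytes. L1cam and Ncam1 are adhesion molecules of axons and of immature glia. Gap43 is a membrane-associated protein of growing axons that Schwann cells also make after nerve injury, and Tubb3 is the beta-tubulin used as a marker of neurons. SKPs are known for their capacity to give rise to Schwann cells and neuron-like cells in culture, and Schwann cells of the dermis take part in skin repair.

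Levels are log2 values after the authors' normalisation, and 1 unit is a 2-fold difference. A gene was called dim on an array where it lay at or below the median of all 22180 genes on that array, which was between 7.06 and 7.17. The 1105 olfactory receptor genes, which dermal cells are not known to use, had medians of 4.23 to 4.48 and 95th percentiles of 6.24 to 6.68 on the 12 arrays. Probe sets differ in how brightly they respond, so levels were compared between samples of a gene and not between genes. Differences were tested in limma over 13153 genes that lay above the array median of all probe sets (6.57 to 6.74) on at least 3 arrays, with Benjamini-Hochberg adjustment over all of them and a threshold of 0.05. Of the 8 genes, 7 were tested, and Mbp was not, since it passed that line on only 2 arrays.

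Ncam1 was bright on every array and Tubb3 lay above the median of all genes on every array. The other 6 were dim on part or all of the arrays: Gap43 on 4, S100b on 8, L1cam on 9, Sox10 on 10, Mbp on 11 and Gfap on all 12. Their lowest and highest levels were 6.47 and 8.33 for Gap43, 6.01 and 8.30 for S100b, and 6.78 and 8.66 for L1cam. For Sox10 they were 6.49 and 7.21, for Mbp 6.26 and 7.30, and for Gfap 6.55 and 6.91. Of the 7 genes tested none passed the threshold in any of the 6 comparisons between groups or in the F test over the 4 groups, by limma with Benjamini-Hochberg adjustment. The group means described here therefore carry no call, and S100b and Tubb3, with the largest separation of the trimebutine group, are given as values.

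**Figure D1:**
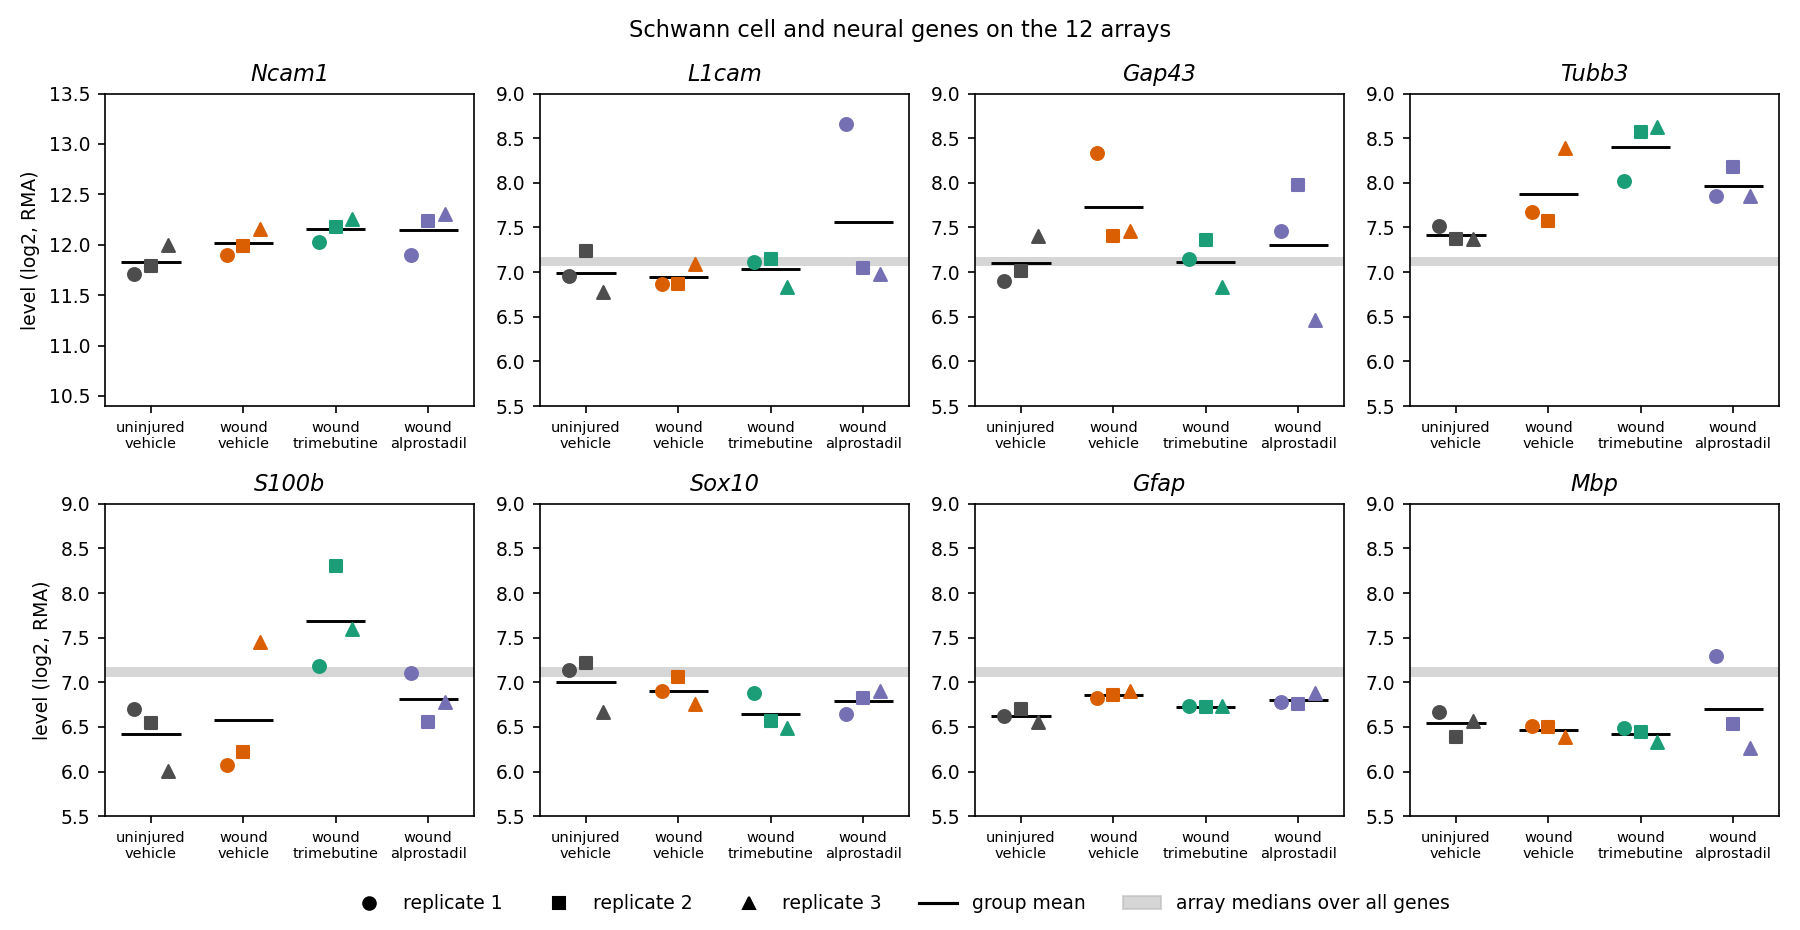
Level of each of the 8 genes (log2, y axis) on the 12 arrays by group (x axis); each symbol is 1 array with its shape giving the replicate, the line is the mean of 3 arrays, and the grey band spans the array medians of all genes. Ncam1, at 11.71 to 12.30, has its own y range above the band, Tubb3 lies above it throughout, and Gfap lies below it throughout.

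One array stood apart. On wound alprostadil replicate 1 the mean of 10 macrophage markers was 11.43, against 6.34 to 7.96 on the other 11 arrays, and the pan-leukocyte gene Ptprc was at 10.44 there and at most 5.67 elsewhere. Results that rest on this array are given with and without it. Markers of dermal fibroblasts were bright on all arrays (8 of 8 tested), with a mean level of 12.39 to 12.71 in uninjured vehicle, 12.46 to 12.54 in trimebutine, 11.36 to 12.50 in wound vehicle and 11.61 to 12.59 in alprostadil. Among SKP markers Fn1 and Vim were bright and Sox2 was at most 5.61, below the line on every array, while Nes was at most 7.12. All values are from whole spheres, in which fewer cells of a type and less RNA per cell cannot be told apart.

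The regulatory sequences of Tubb3 and S100b are shown because these genes had the largest differences and followed each other over the arrays. Entries of RefSeq (GRCm38.p6) were found for 4 of the 8 genes: Tubb3, S100b, Gfap and L1cam. The 250 bases before the annotated start are printed 5′ to 3′ on the plus strand, at chr8:123411303-123411552 for Tubb3 and at chr10:76253586-76253835 for S100b. Capitals mark matches to a CCAAT box (CCAAT or its reverse complement ATTGG) and to a GC box (GGGCGG on either strand).
Tubb3: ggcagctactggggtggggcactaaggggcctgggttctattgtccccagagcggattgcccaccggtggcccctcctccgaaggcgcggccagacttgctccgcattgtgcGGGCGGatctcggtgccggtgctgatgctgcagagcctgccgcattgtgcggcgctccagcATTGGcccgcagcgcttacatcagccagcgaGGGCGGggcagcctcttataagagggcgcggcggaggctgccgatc
S100b: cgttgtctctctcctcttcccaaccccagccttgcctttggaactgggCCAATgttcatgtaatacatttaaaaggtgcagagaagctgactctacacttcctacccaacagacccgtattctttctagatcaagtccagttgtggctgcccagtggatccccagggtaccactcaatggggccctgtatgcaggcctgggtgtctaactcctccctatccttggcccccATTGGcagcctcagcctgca
The Tubb3 sequence was 68.0% G and C and the S100b sequence 53.6%, against a median of 52.4% over 32851 promoters of the same table. Tubb3 held 1 CCAAT box at 77 bases before the start, and 2 GC boxes at 138 and 46 bases. S100b held 2 CCAAT boxes at 202 and 20 bases and no GC box. A CCAAT box was present in 33.8% of all promoters of this length and a GC box in 32.7%. The letters TATAAA (in 12.4% of promoters) and the SOX core AACAAT (in 9.42%), searched on both strands, were absent from both windows. These are matches of letters and were not tested for binding.

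Among the Schwann cell genes, Sox10, the transcription factor of neural crest and Schwann cells, had its highest values in spheres from uninjured skin (probe set 17319134). It measured 7.14, 7.21 and 6.67 in uninjured vehicle, 6.91, 7.06 and 6.76 in wound vehicle, 6.88, 6.56 and 6.49 in wound trimebutine, and 6.64, 6.83 and 6.91 in wound alprostadil. Only uninjured replicates 1 and 2 lay above the median of all genes, and the third uninjured array lay within the range of the wound groups, so all groups overlapped. The largest difference, trimebutine against uninjured vehicle, was -0.36 ± 0.16 (SE), with a 95% interval of -0.72 to -0.003 (limma adjusted p = 0.693).

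S100b was highest in spheres from trimebutine-treated wounds (probe set 17234494). It measured 6.70, 6.55 and 6.01 in uninjured vehicle and 6.07, 6.22 and 7.45 in wound vehicle. It measured 7.18, 8.30 and 7.60 in wound trimebutine, and 7.11, 6.56 and 6.77 in wound alprostadil. All 3 trimebutine arrays lay above every uninjured and every alprostadil array, and wound vehicle replicate 3 was the one wound vehicle array that reached their range. These 3 trimebutine arrays and wound vehicle replicate 3 were also the 4 arrays on which S100b was not dim.

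The mean of S100b was 6.42 ± 0.36 (SD, n = 3) in uninjured vehicle, 6.58 ± 0.76 in wound vehicle, 7.69 ± 0.57 in trimebutine and 6.81 ± 0.28 in alprostadil. Trimebutine exceeded wound vehicle by 1.11 ± 0.38 (SE), or 2.16-fold, with an interval of 0.26 to 1.96. The limma adjusted p was 0.528, the smallest value in this comparison but one shared between genes. Tubb3 also had 0.528, at a larger unadjusted limma p (0.0376 against 0.0152 for S100b). The value therefore gives S100b no rank among all genes. Without wound vehicle replicate 3 the difference was 1.55 (limma adjusted p = 0.0787), and without trimebutine replicate 2 it was 0.81.

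Against the other reference groups the trimebutine spheres gave the same order for S100b. The difference from uninjured vehicle was 1.27 ± 0.38 (SE), or 2.42-fold, with a limma adjusted p of 0.382. The difference from alprostadil, the comparison of both drugs in the wound, was 0.88 ± 0.38 with an interval of 0.03 to 1.73 and a limma adjusted p of 0.752, and it was 1.02 without alprostadil replicate 1 and 0.57 without trimebutine replicate 2. Alprostadil lay 0.24 ± 0.38 above wound vehicle, with an interval of -0.61 to 1.08 that spans 0. Without wound vehicle replicate 1 this difference was -0.02, and without alprostadil replicate 1 it was 0.09. These comparisons share arrays, wound vehicle or uninjured vehicle or the trimebutine group itself, and are not independent of each other.

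Mbp, the myelin basic protein gene, was at 6.26 to 6.67 on 11 arrays and was higher on one (probe set 17352175). The values were 6.67, 6.38 and 6.57 in uninjured vehicle, 6.51, 6.50 and 6.38 in wound vehicle, 6.49, 6.45 and 6.33 in trimebutine, and 7.30, 6.53 and 6.26 in alprostadil. The value of 7.30 belongs to alprostadil replicate 1, the array with high macrophage markers, and the other alprostadil arrays averaged 6.39. Mbp exceeded the 95th percentile of olfactory receptor genes on 6 of the 12 arrays.

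Gfap, the filament of astrocytes and non-myelinating Schwann cells, varied least of the 8 genes, with 0.36 between its lowest and highest array (probe set 17270354). It measured 6.62, 6.70 and 6.55 in uninjured vehicle, 6.82, 6.85 and 6.91 in wound vehicle, 6.73, 6.72 and 6.73 in trimebutine, and 6.78, 6.76 and 6.88 in alprostadil. All 9 wound arrays lay above all 3 uninjured arrays, a pattern picked out after the values were seen that Gfap shared with Tubb3 and with 1.29% of all genes tested. Its residual SD of 0.05 stood at the 1.3th percentile of the genes tested, so small steps separated its groups.

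Wound vehicle exceeded uninjured vehicle in Gfap by 0.24 ± 0.07 (SE), or 1.18-fold, with an interval of 0.09 to 0.40 (limma adjusted p = 0.218). Trimebutine lay below wound vehicle on every array, by -0.13 ± 0.07 on average (limma adjusted p = 0.545). All these values lay below the median of all genes on their array.

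Of the adhesion molecules, Ncam1 gave a bright signal on every array (probe set 17526776), above 96.8% of all genes or more. It measured 11.71, 11.79 and 11.998 in uninjured vehicle and 11.90, 11.99 and 12.15 in wound vehicle. It measured 12.02, 12.17 and 12.26 in trimebutine, and 11.89, 12.24 and 12.30 in alprostadil. All 3 trimebutine arrays lay above the uninjured arrays in this narrow range. Alprostadil replicate 1 and wound vehicle replicates 1 and 2 fell within the uninjured range.

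Trimebutine exceeded uninjured vehicle in Ncam1 by 0.32 ± 0.13 (SE), or 1.25-fold (limma adjusted p = 0.623). Alprostadil exceeded it by 0.31 ± 0.13 (limma adjusted p = 0.657), and by 0.44 without alprostadil replicate 1. The drugs differed from each other by 0.01 ± 0.13, with an interval of -0.28 to 0.29.

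L1cam, the founding member of the L1 family of axonal adhesion molecules, was near the median of all genes on 11 arrays and higher on alprostadil replicate 1 (probe set 17542419). It measured 6.96, 7.24 and 6.78 in uninjured vehicle, 6.87, 6.87 and 7.09 in wound vehicle, 7.11, 7.14 and 6.83 in trimebutine, and 8.66, 7.05 and 6.98 in alprostadil. The first alprostadil array lay 1.42 above the highest of the other arrays, and the remaining values of all groups overlapped. Alprostadil against wound vehicle was 0.62 ± 0.37 (SE) with that array (limma adjusted p = 0.998) and 0.07 without it.

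The array that set L1cam and Mbp apart was the one with high macrophage markers. All 10 macrophage markers were higher there than on every other array: Adgre1 was at 11.12 against at most 7.12, Csf1r at 10.12 against at most 6.95, and Lyz2 at 12.84 against at most 10.96. Their part in the levels of L1cam and Mbp was not tested. Over 12 arrays the genes closest to L1cam by Pearson r were Coro1a (0.97), Kcnk6 (0.97) and Macir (0.96), and without this array these r were 0.57, 0.52 and 0.43. Coro1a encodes an actin-binding protein of leukocytes.

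**Figure D2:**
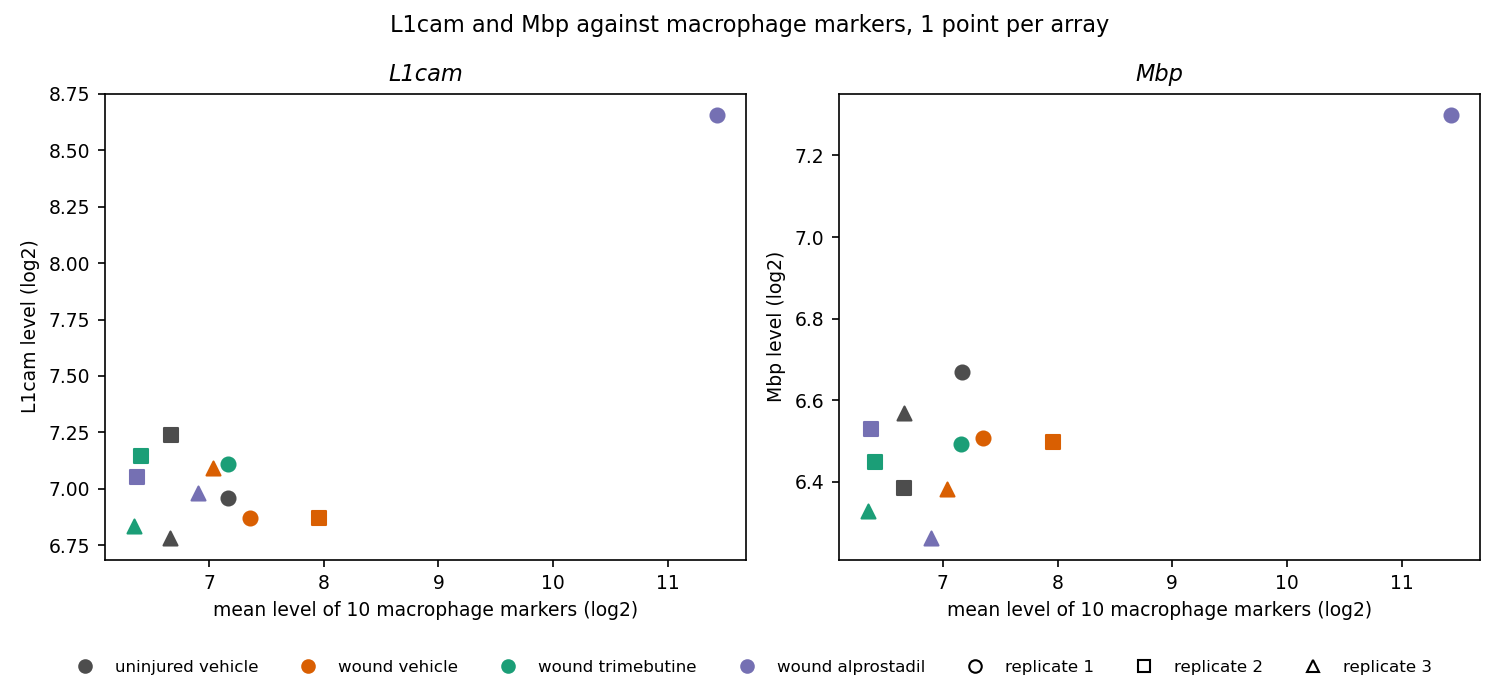
Levels of L1cam and Mbp (log2, y axes) against the mean level of 10 macrophage markers (log2, x axis) on the 12 arrays, coloured by group. Wound alprostadil replicate 1 lies alone at 11.43 on the x axis with L1cam at 8.66 and Mbp at 7.30, and the other 11 arrays form 1 cluster in each panel.

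Gap43, the growth-cone protein, was highest on wound vehicle replicate 1 and lowest on alprostadil replicate 3 (probe set 17330443). It measured 6.90, 7.01 and 7.41 in uninjured vehicle, 8.33, 7.41 and 7.46 in wound vehicle, 7.15, 7.36 and 6.83 in trimebutine, and 7.47, 7.97 and 6.47 in alprostadil. Every trimebutine array lay below every wound vehicle array, and the alprostadil arrays spanned nearly the whole range of the other groups. Wound vehicle against uninjured vehicle was 0.63 ± 0.36 (SE; limma adjusted p = 0.489), and 0.33 without wound vehicle replicate 1. Trimebutine against wound vehicle was -0.62 ± 0.36 (limma adjusted p = 0.568), and -0.32 without that same array.

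Tubb3, the neuronal beta-tubulin gene, gave the smallest F-test p of the 7 tested genes over the 4 groups (probe set 17506631). It measured 7.51, 7.37 and 7.37 in uninjured vehicle and 7.68, 7.57 and 8.39 in wound vehicle. It measured 8.02, 8.56 and 8.62 in trimebutine, and 7.86, 8.18 and 7.85 in alprostadil. Every wound array lay above every uninjured array, and the trimebutine arrays were the highest apart from wound vehicle replicate 3 and alprostadil replicate 2, which fell between them.

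The mean of Tubb3 was 7.42 ± 0.08 (SD, n = 3) in uninjured vehicle, 7.88 ± 0.44 in wound vehicle, 8.40 ± 0.33 in trimebutine and 7.96 ± 0.19 in alprostadil. Trimebutine exceeded uninjured vehicle by 0.99 ± 0.22 (SE), or 1.98-fold, with an interval of 0.50 to 1.47 (limma adjusted p = 0.199). It exceeded wound vehicle by 0.53 ± 0.22, or 1.44-fold (limma adjusted p = 0.528), and by 0.78 without wound vehicle replicate 3 (limma adjusted p = 0.0856). Wound vehicle exceeded uninjured vehicle by 0.46 ± 0.22 (limma adjusted p = 0.413), and by 0.21 without that array.

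Alprostadil exceeded uninjured vehicle in Tubb3 by 0.55 ± 0.22 (SE; limma adjusted p = 0.656). Against wound vehicle its difference was 0.09 ± 0.22, with an interval of -0.40 to 0.57. Trimebutine lay 0.44 ± 0.22 above alprostadil, with an interval of -0.05 to 0.93 (limma adjusted p = 0.752), and 0.39 above it without alprostadil replicate 1. Over the groups, the trimebutine mean was the highest, but none of the differences among the wound groups passed the adjusted threshold. The alprostadil and wound vehicle means lay next to each other, within their spread.

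**Figure D3:**
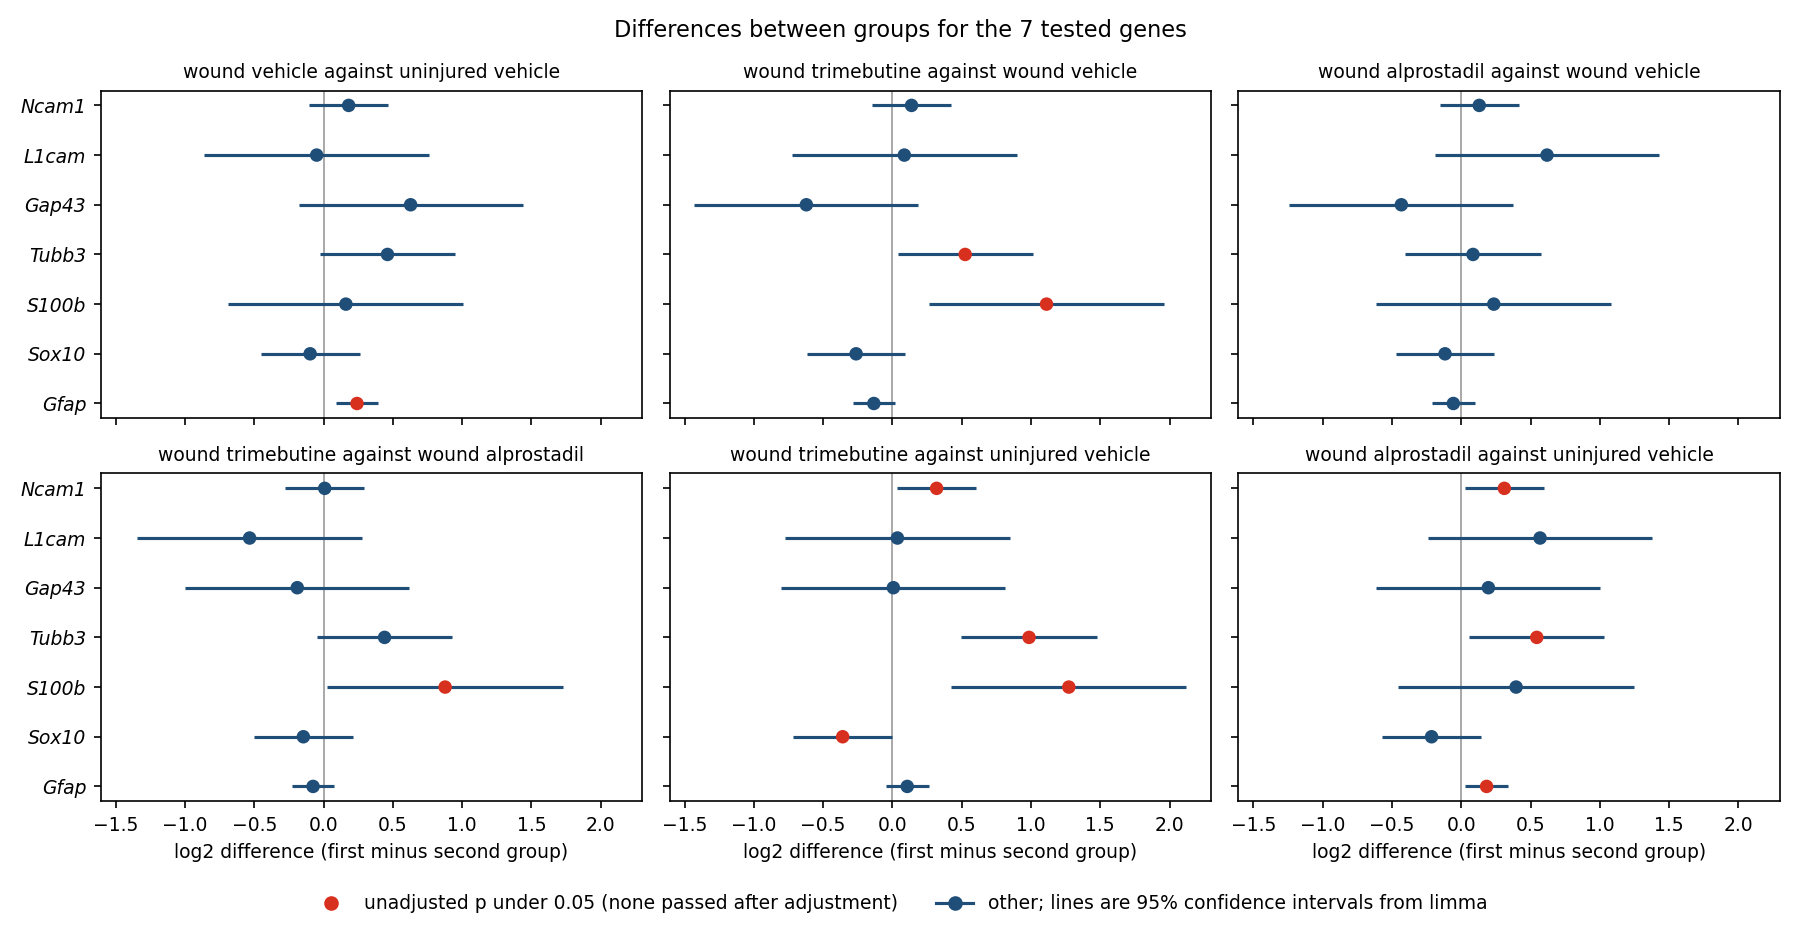
Difference between group means (log2, x axis) for the 7 tested genes in the 6 comparisons, with 95% intervals from limma; red marks an unadjusted p under 0.05. Intervals for S100b and Tubb3 lie above 0 for trimebutine against wound vehicle (0.26 to 1.96 and 0.04 to 1.01), and no difference passed the adjusted threshold.

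Counts over the 7 tested genes were read against the share of all 13153 genes that met the same criterion. For wound vehicle against uninjured vehicle 0 of 7 passed the adjusted threshold of limma (0.0456% of all genes did). Gfap alone had an unadjusted p under 0.05 (13% of all genes), and Gfap and Tubb3 had groups that did not overlap (18%). This comparison asks what wounding changed without a drug, and 2 of 7 is near the background.

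For trimebutine against wound vehicle, the effect of this drug in the wound, 0 of 7 passed the adjusted threshold of limma (0% of all genes). S100b and Tubb3 had an unadjusted p under 0.05, both higher with trimebutine (9.43% of all genes). Groups did not overlap for Gfap and Gap43, both lower with trimebutine (15.8%). For alprostadil against wound vehicle none of the 7 met any of the 3 criteria, which 0%, 2.75% and 5.9% of all genes met by adjusted p, unadjusted p and non-overlap. For trimebutine against alprostadil 0 of 7 passed the adjusted threshold of limma (0% of all genes), S100b had an unadjusted p under 0.05 (4.42%), and S100b (higher) and Gfap (lower) did not overlap (11.2%).

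Against uninjured vehicle, trimebutine had 0 of 7 past the adjusted threshold of limma (0.198% of all genes) and 4 of 7 with an unadjusted p under 0.05 (7.13%). These were S100b, Ncam1 and Tubb3, higher, and Sox10, lower. S100b, Gfap, Ncam1 and Tubb3 did not overlap (13.7%). For alprostadil against uninjured vehicle 0 of 7 passed the adjusted threshold (0%), Gfap, Ncam1 and Tubb3 had an unadjusted p under 0.05 (7.25%), and Gfap and Tubb3 did not overlap (9.41%). In limma's F test over the 4 groups 0 of 7 passed (0.0152% of all genes), with adjusted p from 0.553 for Tubb3 to 0.748 for L1cam, and S100b, Gfap and Tubb3 had an unadjusted p under 0.05 (7.89%).

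S100b and Tubb3 followed each other over the 12 arrays more closely than any other pair apart from L1cam and Mbp. Their Pearson r was 0.84 (permutation p = 0.00056, adjusted p = 0.0157 over the 28 pairs of the 8 genes) and their Spearman rho was 0.83 (permutation p = 0.00158, adjusted p = 0.0442). Without trimebutine replicates 2 and 3, the arrays farthest from the median of S100b, r was 0.71, and with the group means removed it was 0.71. S100b and Tubb3 were the only pair with an adjusted p under 0.05. The arrays share normalisation and groups. The permutations ran over all 12 arrays without regard to group, so these p also reflect differences between groups. No p was computed for the r with group means removed. For L1cam and Mbp r was 0.85 with a rho of -0.01 and permutation p = 0.0619 for r (adjusted p = 0.289), and r was -0.22 without alprostadil replicate 1, so that relation rests on that array. With uninjured replicate 3 left out as well, the other of the 2 arrays farthest from the median of L1cam, r was -0.08. For Ncam1 and Tubb3 r was 0.73 and rho 0.70 (permutation p = 0.00859 and 0.0142, adjusted p = 0.105 and 0.133), and r was 0.84 without the 2 farthest arrays. For Sox10 and Tubb3 r was -0.70 and rho -0.74 (permutation p = 0.0113 and 0.00763, adjusted p = 0.105 and 0.107), and r was -0.51 without the 2 farthest.

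The 4 arrays with the highest S100b were also the 4 with the highest Acta2, the smooth muscle actin of contractile cells and myofibroblasts. Acta2 measured 10.16, 9.81 and 10.15 in trimebutine, 7.93, 7.85 and 9.95 in wound vehicle, 8.75, 8.83 and 8.57 in uninjured vehicle, and 8.53, 8.40 and 9.67 in alprostadil. Wound vehicle replicate 3, alone in its group, was high for S100b, Tubb3 and Acta2. The mean of 7 smooth muscle and pericyte markers was 8.17 to 8.42 in trimebutine, 7.53 to 8.31 in wound vehicle, 7.84 to 7.97 in uninjured vehicle and 7.67 to 8.17 in alprostadil. Of these 7 markers 4 were tested. Contractile genes beside Acta2 were low: Cnn1 was at most 6.01, Tagln at most 7.01, and Myh11 stayed at 7.05 to 7.34. Rgs5 was above the line on 2 arrays only. The pericyte genes Pdgfrb (11.80 to 12.87) and Cspg4 (8.22 to 9.40) were brighter. Acta2 was chosen after its values were seen.

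Group means of markers of other cell types also lay apart in comparisons where those of S100b and Tubb3 did, without a call for either. The mean of 8 dermal fibroblast markers was 11.70 and 11.36 on wound vehicle replicates 1 and 2 but 12.50 on replicate 3, within the range of the trimebutine arrays (12.46 to 12.54). In trimebutine against wound vehicle the fibroblast markers had a median difference of 0.73 beside 0.00 over all genes, and 4 of 8 were higher and 0 lower at an unadjusted p under 0.05 (9.43% of all genes). In wound vehicle against uninjured vehicle all 8 had lower means, with a median of -0.60, and 2 had an unadjusted p under 0.05 (13% of all genes). Dpt, a dermal matrix gene, had group means of 13.44, 11.99, 13.37 and 12.78 in uninjured vehicle, wound vehicle, trimebutine and alprostadil. The 7 macrophage markers tested had a median difference of 1.02 in wound vehicle against uninjured vehicle and -1.17 in trimebutine against wound vehicle, with none at an unadjusted p under 0.05. None of these markers passed limma's adjusted threshold, and the part of fibroblast, macrophage and smooth muscle markers in the levels of S100b and Tubb3 was not tested.

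**Figure D4:**
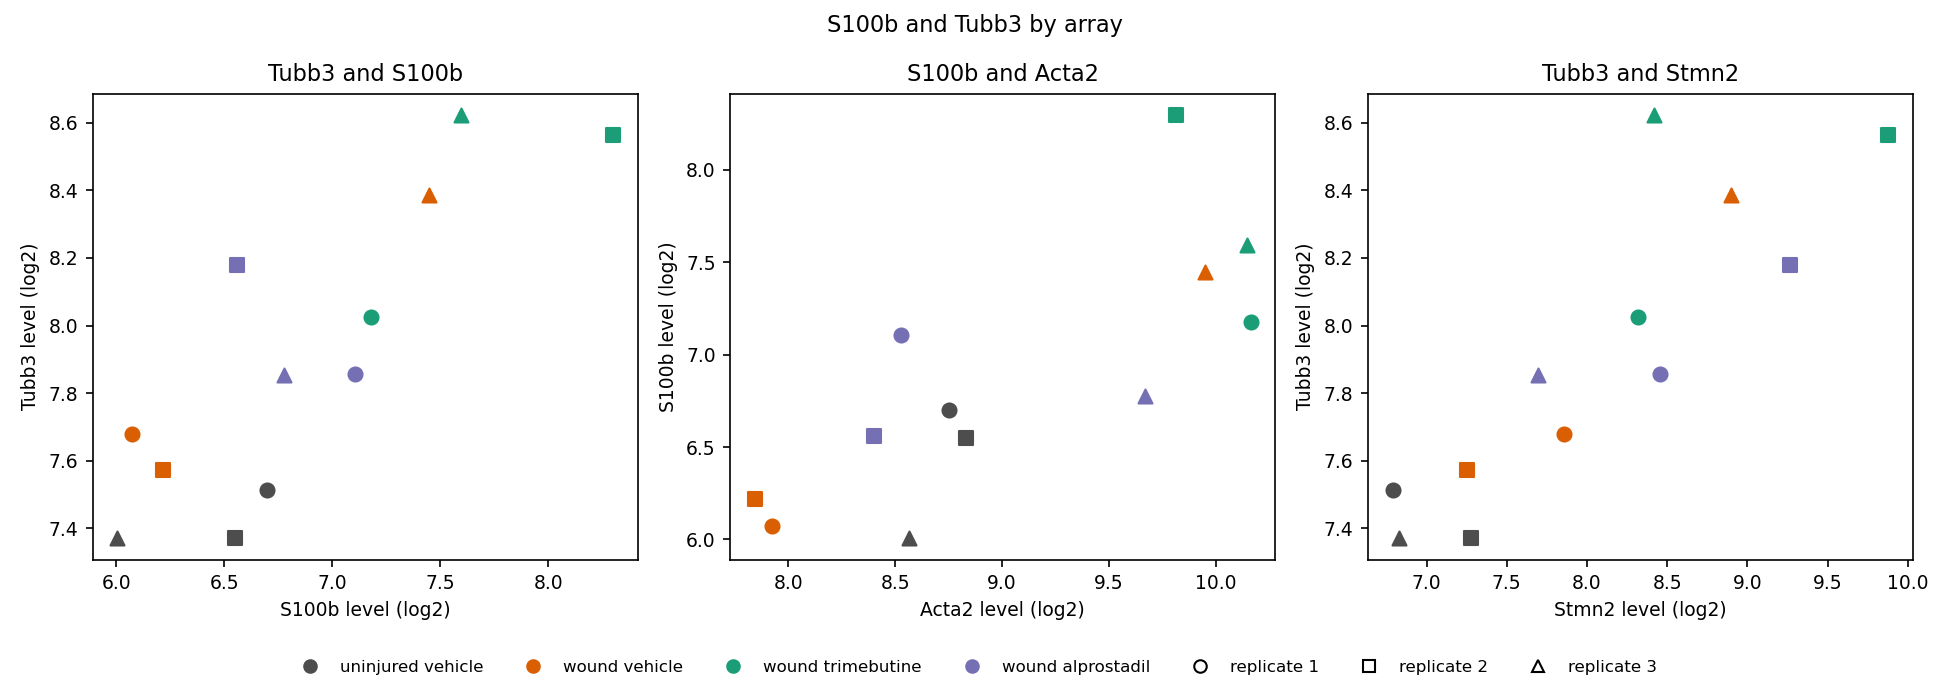
Panels over the 12 arrays, coloured by group, all axes in log2 units: Tubb3 against S100b, S100b against Acta2, and Tubb3 against Stmn2. Wound vehicle replicate 3 lies with the trimebutine arrays in the S100b panels, and the uninjured arrays lie at the low end of Tubb3 and Stmn2.

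Genes whose pattern over the 12 arrays was most like that of each tested gene were taken by Pearson r, as the highest of 13153 and thus as a description. For S100b they were Net1 (0.96), Pde7a (0.94) and Trim28 (0.93), and for Tubb3 they were Ctnnal1 (0.95), Plekhg3 (0.92) and Fkbp4 (0.91). Sox10 was nearest to Trnp1 (0.91), Atp9a (0.85) and Ctsk (0.84), and Ncam1 to BC034090 (0.92), Usp11 (0.91) and Pcgf2 (0.91). Gap43 was nearest to Nhlrc2 (0.91), 4930503L19Rik (0.90) and Atp6v1h (0.90). Gfap was nearest to Jpt1 (0.82), Faap100 (0.81) and Cldn19 (0.80), and Cldn19, a claudin of Schwann cells, was the one of these 21 that also stood in a list of myelin genes.

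Other genes of the same programmes were read from fixed lists, in which 0 genes passed limma's adjusted threshold in any comparison. Of 25 Schwann cell lineage genes 23 matched and 18 were tested. Those fixed beforehand as Schwann cell markers beside Sox10 and S100b were low or in the middle range. Erbb3, the neuregulin co-receptor, was above the line on 1 array only and reached 7.36 on uninjured replicate 2. Cdh19 lay between 6.18 and 7.55. Foxd3, a neural crest factor, was at 7.63 to 7.88 and Ngfr, the low-affinity neurotrophin receptor, at 6.72 to 7.90. Further genes of the lineage list reached higher levels, among them Egr2 (7.61 to 10.57), Tfap2a (9.28 to 10.44) and Gas7 (9.85 to 11.14). Each of these lay above the line on all 12 arrays. Uninjured replicate 2 had the highest value of Sox10, Erbb3, Cdh19 and Ngfr alike, but not of S100b or Foxd3. These were at 6.55 and 7.64 there and reached 8.30 and 7.88 on other arrays.

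The brightest lineage genes were Jun, the factor of the repair Schwann cell, at 10.37 to 11.92, and Nab2, a co-regulator of Egr2, at 10.95 to 11.51, both widely expressed genes. The smallest F-test p belonged to Artn, a ligand of the GDNF family, with group means of 6.50, 6.65, 7.22 and 7.06 in uninjured vehicle, wound vehicle, trimebutine and alprostadil (limma adjusted p = 0.553). Ednrb, the endothelin receptor of neural crest cells, followed with 10.09, 9.88, 8.66 and 9.78 (limma adjusted p = 0.589). Ednrb was low on the 3 trimebutine arrays (8.32, 9.12 and 8.54) and on wound vehicle replicate 3 (8.76), the 4 arrays that were high for S100b. In wound vehicle against uninjured vehicle 0 of 18 lineage genes were higher and 3 lower at an unadjusted p under 0.05 (13% of all genes), with a list median of -0.24 beside 0.01 over all genes. In trimebutine against wound vehicle 3 were higher and 1 lower (9.43% of all genes), with a median of 0.03 beside 0.00.

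Myelin genes were mostly below the line: 13 of 16 matched, 5 were tested, and 7 of the 13 were below it on all arrays. Mag, the myelin-associated glycoprotein gene, was at most 5.80. Pmp22, which fibroblasts also express, was bright at 10.94 to 11.62, and Cnp lay at 7.27 to 7.84. None had an unadjusted p under 0.05 in any comparison, and the list medians lay between -0.06 and 0.12. Cldn19 had group means of 7.34, 7.48, 7.42 and 7.42 in the order given for Artn.

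The markers of neurons fixed beside Tubb3 were low or in the middle range. Map2 was at most 6.22, Elavl4 5.45 and Nefl 6.65, all below the line on every array. Rbfox3 (7.05 to 7.26), Snap25 (6.95 to 7.68) and Syp (6.65 to 7.02) stood at middle levels. Stmn2, a microtubule-destabilising protein of growing axons, spread more widely: its group means were 6.97, 8.003, 8.87 and 8.47 in uninjured vehicle, wound vehicle, trimebutine and alprostadil (limma F-test adjusted p = 0.576). Its arrays were 6.79, 7.28 and 6.83 in uninjured vehicle, 7.86, 7.25 and 8.90 in wound vehicle, 8.32, 9.88 and 8.42 in trimebutine, and 8.45, 9.26 and 7.69 in alprostadil. Wound vehicle replicate 2 fell within the uninjured range, and wound vehicle replicate 3 was again the highest of its group.

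Of 25 neuronal genes all 25 matched and 15 were tested. In trimebutine against wound vehicle 2 were higher and 1 lower at an unadjusted p under 0.05 (9.43% of all genes), with a list median of -0.07 beside 0.00 over all genes. Stmn1, the widely expressed stathmin, had group means of 8.05, 8.57, 8.13 and 8.40, an order unlike that of Stmn2. Dcx was at most 5.74, below the line on every array, whereas Eno2 lay at 9.05 to 9.64 and Uchl1 at 6.95 to 7.74. Crmp1 (9.20 to 10.13), Basp1 (10.37 to 10.80) and Marcks (10.73 to 11.12) were bright. Syn1, a synaptic vesicle gene, lay at 7.56 to 8.67, lowest on uninjured replicate 2 and highest on wound vehicle replicate 3. The brightest, Dpysl2 and Dpysl3, which encode collapsin response mediators, ranged from 11.56 to 12.82 and from 10.72 to 12.02.

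Among 7 beta-tubulins other than Tubb3, 4 were tested and 3 lay below the line on all arrays. All 4 had higher means in trimebutine than in wound vehicle, with a median difference of 0.60 beside 0.00 over all genes, and 2 of them had an unadjusted p under 0.05 (9.43% of all genes). The fibroblast markers differed the same way in this comparison (median 0.73). Tubb2a differed by 1.39 (group means 8.64 and 10.03) and Tubb2b by 0.69, and the bright Tubb5 and Tubb6 by 0.29 and 0.50. Unlike Tubb3, all 4 had lower means in wound vehicle than in uninjured vehicle, with a median of -0.30, and a value of -0.002 for Tubb5. The difference between Tubb3 and its relatives was not tested. Near-identical beta-tubulin sequences could share signal on the array.

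Among the relatives of S100b, 15 S100 genes in all, 10 were tested, and in trimebutine against wound vehicle 1 was higher and 0 lower at an unadjusted p under 0.05 (9.43% of all genes), with a list median of 0.20 beside 0.00 over all genes. S100a10 and S100a11, the brightest, had trimebutine differences of -0.04 and 0.19 from wound vehicle. S100a13 had 0.68 and S100a7a -0.15 (limma F-test adjusted p = 0.653 and 0.658).

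Of 19 neural adhesion genes 18 matched and 10 were tested. Chl1, the close homologue of L1cam, was bright and unlike L1cam in pattern: it measured 12.83, 12.96 and 12.80 in uninjured vehicle, 10.82, 10.33 and 12.50 in wound vehicle, 12.75, 12.77 and 12.75 in trimebutine, and 12.08, 11.41 and 12.89 in alprostadil. Wound vehicle replicates 1 and 2 were low and the trimebutine arrays lay above all wound vehicle arrays and just below the uninjured ones. The difference of wound vehicle from uninjured vehicle was -1.64 ± 0.49 (SE), and that of trimebutine from wound vehicle 1.54 (limma F-test adjusted p = 0.579). Cadm3 had group means of 10.72, 10.93, 10.24 and 11.23 and Cdh2, or N-cadherin, of 9.60, 10.48, 10.10 and 10.25. In trimebutine against wound vehicle 1 adhesion gene was higher and 1 lower at an unadjusted p under 0.05 (9.43% of all genes), with a list median of 0.00.

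Of 21 genes for growth signals of Schwann cells 17 matched and 15 were tested. Gfra1, the GDNF co-receptor, measured 10.88, 10.96 and 10.78 in trimebutine, 9.07, 9.12 and 9.998 in wound vehicle, 10.17, 11.03 and 9.90 in uninjured vehicle, and 9.38, 9.50 and 10.49 in alprostadil. The trimebutine arrays lay above all wound vehicle and alprostadil arrays and within reach of uninjured replicate 2 (limma F-test adjusted p = 0.567). In trimebutine against wound vehicle 5 of the 15 were higher and 0 lower at an unadjusted p under 0.05 (9.43% of all genes), with a list median of 0.05 beside 0.00. In wound vehicle against uninjured vehicle 0 were higher and 4 lower (13% of all genes), with a median of -0.32. Nrp2, a semaphorin and VEGF receptor, was the brightest at 10.57 to 11.71.

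Astrocyte genes and filaments were the company of Gfap. Of 10 astrocyte genes 6 were tested, Aqp4 was at most 5.49, and all 6 had higher means in trimebutine than in wound vehicle (median 0.41, 1 with an unadjusted p under 0.05 beside 9.43% of all genes), where Gfap was lower. Gja1 had group means of 12.39, 11.50, 11.92 and 11.86, Sox9 of 10.53, 10.69, 11.05 and 10.84, and Aldh1l1 of 9.97, 8.75, 9.43 and 9.25, and dermal cells are known to express Gja1 and Sox9. Of 9 intermediate filament genes 4 were tested: Vim was bright at 13.61 to 13.84, and Nefh and Synm lay at 6.82 to 7.15 and 6.81 to 7.09. None of these 4 had an unadjusted p under 0.05 in any comparison, and the list medians lay between -0.05 and 0.03.

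Melanocytes share Sox10 and Ednrb with the Schwann lineage, and 4 of 8 melanocyte markers were tested. The pigment genes Tyr, Dct, Tyrp1 and Slc45a2 lay below the line on every array, with Tyr at most 5.38 and Dct at most 6.26, and Mlana (6.87 to 7.73) and Pmel (6.72 to 7.23) lay higher. Mitf was at 9.11 to 9.86, and the mean of the 8 markers was 6.66 to 7.10. Kit, a receptor of melanocytes and mast cells, measured 7.59, 7.46 and 7.41 in uninjured vehicle, 8.06, 7.47 and 9.42 in wound vehicle, 8.898, 8.60 and 9.04 in trimebutine, and 8.18, 7.85 and 7.77 in alprostadil (limma F-test adjusted p = 0.594). Its 4 highest arrays were the 3 trimebutine arrays and wound vehicle replicate 3, as for S100b, and its part in that result was not tested.

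Mean marker levels were 6.36 to 6.62 for keratinocytes, 6.55 to 7.49 for endothelial cells, 6.12 to 6.71 for skeletal muscle and 5.31 to 6.87 for mast and T cells. The highest endothelial value, 7.49, was that of alprostadil replicate 1, and the other alprostadil arrays were both at 6.87. The mean of 8 SKP markers was 10.27 to 10.46 on all arrays.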

How the data were processed

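Log2 expression values of 41345 probe sets on 12 arrays were deposited by the authors, who used RMA in oligo (an R package) per the submitters' processing notes, with no version or setting given. Probe sets with 1 symbol (23521) were kept, 1814 with several and 16010 with none were not used, and the brightest per symbol gave 22180 genes. All 4 groups entered 1 model in limma 3.58.1 (R 4.3.3), with no covariate and 8 residual degrees of freedom, and p-values are two-sided. The number of arrays limits the precision. Since replicates are separate isolates, the spread behind each p-value is that between isolates. The genes and lists were chosen with earlier results of these data known.

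Named in the text are all 8 genes, from each list of pathway genes its 2 brightest members and the 2 with the smallest F-test p, the 3 genes most like each tested gene by Pearson r, and markers of cell types. Markers and list genes named outside this rule (Acta2, Kit, Dpt, Syn1 and others), and values of single arrays of list genes, were chosen after their values were seen. Correlations between the 8 genes have permutation p from 100000 draws. The scripts were tested on simulated data. No 2 arrays held identical values. Figures used Python 3.11.15 and matplotlib 3.10.9. Listed genes that did not match are not analysed here.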

Additional observations from a re-analysis of the deposited data

How the results depend on the processing

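None of the 7 tested genes was called under any alternative except array weights: no filter on dim genes or a stricter one, probe sets averaged per gene, a replicate block, median centring, cyclic loess, another variance model, only the groups compared, leaving out each array (0 to 0 called in every comparison) and, added after seeing the data, leaving out the 3 arrays of lowest median. With array weights, which ran from 0.299 for wound alprostadil replicate 1 to 5.99 for uninjured replicate 2, the calls were 2 for wound vehicle against uninjured vehicle, 5 for trimebutine against wound vehicle, 4 for trimebutine and 2 for alprostadil against uninjured vehicle, and 4 in the F test. With these weights 38%, 30.7%, 16.5%, 4.27% and 40.3% of all genes were called; the cause was not tested.

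The replicate numbers gave no clear pairing of the samples. Same-numbered arrays of different groups had correlations of -0.644 to 0.618 between their deviations, against -0.57 to 0.583 for differently numbered arrays. Of the 12 arrays, 5 were closest to an array of their own number. Replicate 1 pairs had 0.193 to 0.572, apart from -0.364 for uninjured against wound vehicle. Replicate 2 and 3 pairs had both signs. The arrays of lowest median were replicate 1 of alprostadil, uninjured vehicle and trimebutine. Whether arrays of a number share a batch was not tested. With the replicate block 0 of the 7 genes were called in each comparison. Every group holds each replicate number, so the block could change the errors but not the differences between group means. The 1.11 of S100b for trimebutine against wound vehicle was thus fixed in advance.

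Signs turned mostly for small differences. L1cam in trimebutine against alprostadil was an exception, at -0.53 with all arrays and 0.014 without alprostadil replicate 1. For wound vehicle against uninjured vehicle, leaving out single arrays gave -0.267 to 0.006 for Sox10, -0.27 to 0.41 for S100b (-0.31 with array weights) and -0.157 to 0.074 for L1cam. For alprostadil against wound vehicle it gave -0.018 to 0.669 for S100b and -0.068 to 0.338 for Tubb3, and Gfap turned from -0.06 to 0.004 with median centring and 0.019 with cyclic loess. For trimebutine against alprostadil it gave -0.825 to 0.014 for L1cam, -0.117 to 0.087 for Ncam1 (-0.022 with array weights, -0.053 without the 3 arrays of lowest median) and -0.61 to 0.15 for Gap43. For trimebutine against uninjured vehicle it gave -0.071 to 0.159 for L1cam (-0.106 and -0.02 under the same 2 settings) and -0.12 to 0.16 for Gap43 (-0.003 with cyclic loess, -0.12 without the 3 arrays). For alprostadil against uninjured vehicle it gave -0.14 to 0.61 for Gap43. Dim signal limits what can be read from Gfap, Sox10, Mbp and L1cam. The same holds for S100b, which was dim on 8 arrays, among them all uninjured and alprostadil arrays.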
